A study of Homo sapiens with 20 samples.

Results

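The genes described here are 8 genes of the HOXA cluster, HOXA3, HOXA4, HOXA5, HOXA6, HOXA7, HOXA9, HOXA10 and HOXA11, together with MEIS1 and PBX3, 10 of the 35168 genes in the deposited gene table. They were chosen by name, with earlier results of these data known, and all 10 have a row. The study profiled 5 established human lines in 20 RNA-seq libraries. THP-1, NOMO-1 and Kasumi-1 derive from acute myeloid leukemia (AML), while iHUVEC and TIME are endothelial, the kind of cell that forms the inner wall of vessels. There was 1 untreated library for each line, 1 with interferon gamma (IFNg), 1 with tumor necrosis factor alpha (TNFa) and 1 with both, each cytokine at 10 ng/ml for 24 h. THP-1 and NOMO-1 are known to carry a KMT2A-MLLT3 fusion and Kasumi-1 a RUNX1-RUNX1T1 fusion. These fusions are background knowledge about the lines that the labels do not give and that gene levels do not measure. THP-1 and NOMO-1 are called the KMT2A-rearranged lines below. With 1 library per line and condition, the line was the replicate (n = 2 KMT2A-rearranged lines, n = 2 endothelial lines and 1 Kasumi-1 line), and p-values measure the spread between lines, not between cultures of a line.

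HOXA genes encode homeodomain transcription factors that pattern the body axis in embryos and are active in hematopoietic stem and progenitor cells, where they are switched off as cells mature. They are named and ordered along the chromosome from anterior to posterior by the body region they pattern. MEIS1 and PBX3 belong to the TALE class of homeodomain proteins, which bind DNA together with HOX proteins. KMT2A, a histone methyltransferase, maintains HOX gene activity, and its fusion proteins are known to drive HOXA9 and MEIS1 in leukemia. Endothelial cells also use HOXA9 and other HOXA genes.

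Levels are in TPM (transcript abundance scaled to a common total), a length-corrected share of the RNA of a library, so levels of different genes can be compared. Column totals lay between 947940 and 995175 TPM, no 2 libraries held identical values, and sequencing depth is unknown because TPM keeps no read total. Mitochondrial genes took 73.2 to 82.1% of the TPM of NOMO-1 and 11.9 to 24.8% of that of the other lines, which lowers the TPM of every other gene in NOMO-1, so NOMO-1 levels are also given with mitochondrial genes removed and the rest rescaled. The values called both cytokines come from columns headed x2, a name matched to that treatment because every other treatment of a line had a column of its own. The labelled cell types fit their marker lists by sum, though not in every gene. The 12 endothelial markers summed to 2189 to 3841 TPM in iHUVEC and 1237 to 3127 TPM in TIME. They summed to 49.4 to 340 TPM in Kasumi-1, 27.8 to 57.1 in THP-1 and 1.74 to 12.5 in NOMO-1. In Kasumi-1 and THP-1, 2 of them were at 1 TPM or more in all 4 libraries, as were 2 of 14 blood markers in TIME. The endothelial cadherin gene CDH5 was listed at 0 in all 12 AML libraries, and the leukocyte gene PTPRC was listed at 0 in the 4 iHUVEC libraries and reached at most 0.0539 TPM in TIME. The 9 fibroblast and mural markers summed to 288 to 856 TPM in iHUVEC, 16.9 to 56.4 TPM in TIME and 0.828 to 32.7 TPM in the AML libraries; their part in the results below was not tested. RUNX1T1, a partner gene of the Kasumi-1 fusion, lay at 38.0 to 66.4 TPM in Kasumi-1 and at most 0.0944 TPM in NOMO-1 and THP-1. It was also detected in iHUVEC, at 1.88 to 6.88 TPM. POU4F1, a gene linked to that fusion, was near 0 in Kasumi-1 (0.0764 to 0.138 TPM).

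The 8 HOXA members, from HOXA3 to HOXA11, span chr7:27106184-27185223 on GRCh38 (79.0 kb) and all lie on the minus strand. The promoter sequences below show where transcription of the genes the results turn on begins: HOXA9, the proximal start of HOXA10, and MEIS1, which lies on chromosome 2. Each is the 250 bases before the RefSeq start on GRCh38.p14, written 5′ to 3′ on the strand of the gene, and none overlaps an annotated exon. The HOXA9 window is chr7:27165538-27165787 on the minus strand, the HOXA10 window is chr7:27174321-27174570 on the minus strand, and the MEIS1 window is chr2:66434875-66435124 on the plus strand. Capitals mark the motifs TATAAA and CCAAT on either strand.
HOXA9: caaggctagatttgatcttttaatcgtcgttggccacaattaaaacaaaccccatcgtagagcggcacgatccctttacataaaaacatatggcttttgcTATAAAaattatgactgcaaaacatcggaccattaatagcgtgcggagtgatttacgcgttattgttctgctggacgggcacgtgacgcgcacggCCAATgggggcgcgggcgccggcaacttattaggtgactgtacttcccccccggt
HOXA10: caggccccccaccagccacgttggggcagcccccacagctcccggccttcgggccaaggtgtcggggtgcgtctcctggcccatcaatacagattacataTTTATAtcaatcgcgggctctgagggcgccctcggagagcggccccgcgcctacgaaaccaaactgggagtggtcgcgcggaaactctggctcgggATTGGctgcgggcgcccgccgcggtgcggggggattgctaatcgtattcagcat
MEIS1: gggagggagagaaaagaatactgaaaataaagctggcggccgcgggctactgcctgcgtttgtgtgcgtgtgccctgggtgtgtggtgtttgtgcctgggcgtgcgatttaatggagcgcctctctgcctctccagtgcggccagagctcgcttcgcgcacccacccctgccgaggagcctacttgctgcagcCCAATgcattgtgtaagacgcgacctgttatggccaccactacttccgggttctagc
The HOXA9 and HOXA10 windows each hold 1 match to TATAAA and 1 to CCAAT, at bases 101 to 106 and 196 to 200 in HOXA9 and at bases 101 to 106 and 197 to 201 in HOXA10, where both matches read on the other strand. The MEIS1 window holds CCAAT at bases 194 to 198 and no TATAAA. The HOXA9 and HOXA10 windows match at 62 of 250 positions (24.8%), a count made without alignment that cannot show whether they are related. They hold 20 and 24 CG dinucleotides and the MEIS1 window 16, against a median of 11 over 35116 promoter windows. RefSeq windows were at hand for 9 of the 10 members, 16 windows in all. TATAAA was found in 4 of the 16 (HOXA3, HOXA9 and HOXA10) against 10.7% of all windows, and CCAAT in 8 of 16 against 32.0%. The interferon gamma activated site TTCNNNGAA was in 0 of 16 against 6.57% of all windows. For the HOX-PBX motif TGATNNAT the counts were 0 of 16 against 6.47%, and for the MEIS motif TGACAG 2 of 16 (HOXA4 and PBX3) against 13.0%. All motifs were searched on both strands, no marked matches overlap in the windows printed, and a match describes letters, not binding.

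HOXA9 (ENSG00000078399, chr7:27162435-27175180), the HOXA gene most closely tied to KMT2A-rearranged leukemia, was expressed in both KMT2A-rearranged lines and both endothelial lines and was low in Kasumi-1. In THP-1 it lay at 37.1 TPM untreated, 39.0 with IFNg, 62.7 with TNFa and 50.4 with both. In NOMO-1 the values in the same order were 21.9, 23.4, 11.9 and 4.74 TPM, or 91.7, 88.1, 60.8 and 26.6 TPM with mitochondrial genes removed. Kasumi-1 gave 1.95, 0.639, 1.39 and 0.120 TPM. Every THP-1 and NOMO-1 library therefore stood above every Kasumi-1 library. The highest HOXA9 values were not leukemic: iHUVEC gave 119, 119, 80.5 and 54.1 TPM, and TIME gave 13.6, 10.7, 15.4 and 9.44 TPM. Ordered by median TPM as deposited, the lines ran iHUVEC, THP-1, NOMO-1, TIME and Kasumi-1, with overlapping ranges between iHUVEC and THP-1 and between NOMO-1 and TIME. With mitochondrial genes removed NOMO-1 came before THP-1, with medians of 120 TPM in iHUVEC, 74.5 in NOMO-1 and 56.8 in THP-1, and the ranges of iHUVEC and NOMO-1 and of NOMO-1 and THP-1 overlapped but not those of NOMO-1 and TIME. Untreated HOXA9 stood 19.1 times higher in THP-1 than in Kasumi-1, 11.3 times higher in NOMO-1 (39.0 times with mitochondrial genes removed), 61.2 times higher in iHUVEC and 6.99 times higher in TIME.

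HOXA10 (ENSG00000253293, chr7:27170591-27180261), the next gene along the cluster and also active in blood progenitors, did not follow HOXA9. Kasumi-1 expressed it at 28.2 TPM untreated, 17.7 with IFNg, 22.7 with TNFa and 6.26 with both. THP-1 gave 38.4, 46.6, 49.4 and 30.9 TPM, and NOMO-1 gave 16.5, 14.6, 6.07 and 4.05 TPM, or 69.0, 54.8, 31.1 and 22.7 TPM with mitochondrial genes removed. THP-1 was above Kasumi-1 in each condition. Untreated NOMO-1 lay at 0.583 times the Kasumi-1 level as deposited and at 2.02 times with mitochondrial genes removed. In the endothelial lines iHUVEC gave 21.3, 27.3, 15.2 and 11.0 TPM and TIME only 2.29 to 3.58 TPM. Kasumi-1 thus had HOXA10 well above the TIME level and little HOXA9.

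HOXA11 (ENSG00000005073, chr7:27181510-27185223), a posterior gene best known from limb, kidney and uterus, was highest in THP-1. There it lay at 17.2, 15.9, 18.0 and 12.0 TPM in the order untreated, IFNg, TNFa and both, above every other library of the series as deposited. iHUVEC gave 9.79, 8.72, 6.17 and 3.26 TPM, NOMO-1 0.398 to 3.95 TPM, Kasumi-1 0.0903 to 1.64 TPM and TIME 0.192 to 0.848 TPM. With mitochondrial genes removed NOMO-1 gave 16.6, 10.9, 4.92 and 2.23 TPM against 15.0 to 23.4 TPM in THP-1, so untreated NOMO-1 lay within the THP-1 range. HOXA13, the last gene of the cluster and not one of the 10, was likewise at 7.37 to 14.3 TPM in THP-1. It reached at most 1.88 TPM in NOMO-1 and at most 0.00847 TPM in the endothelial lines. With mitochondrial genes removed it reached 7.87 TPM in NOMO-1, against 9.26 to 18.3 TPM in THP-1.

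The anterior and central genes HOXA3 to HOXA7, which pattern neck and trunk, reached at most 1.87 TPM in any THP-1 library (2.39 TPM with mitochondrial genes removed). Their highest untreated level was in iHUVEC or, for HOXA4, in NOMO-1, and with mitochondrial genes removed NOMO-1 was highest for HOXA3, HOXA4 and HOXA5. HOXA3 (ENSG00000105997, chr7:27106184-27152581) lay at 12.6, 5.05, 2.30 and 0.779 TPM in NOMO-1 and at 0.118 to 0.224 TPM in THP-1, against 11.0 to 19.8 TPM in iHUVEC, 9.74 to 17.1 TPM in TIME and 0.130 to 2.88 TPM in Kasumi-1. Removing mitochondrial genes put HOXA3 at 52.6, 19.0, 11.8 and 4.37 TPM in NOMO-1 and at 12.9 to 24.0 TPM in iHUVEC. HOXA4 (ENSG00000197576, chr7:27128507-27130799) lay at 18.7, 9.81, 2.58 and 0.678 TPM in NOMO-1 and at 1.02, 0.485, 0.830 and 0.132 TPM in THP-1. In iHUVEC HOXA4 lay at 10.3, 11.1, 21.3 and 18.8 TPM, in TIME at 11.5, 9.46, 18.4 and 11.7 TPM, and in Kasumi-1 at 0.0746 to 0.961 TPM. Removing mitochondrial genes put HOXA4 at 78.4, 36.9, 13.2 and 3.81 TPM in NOMO-1 and at 12.5 to 25.4 TPM in iHUVEC. Untreated NOMO-1 and the endothelial lines thus all had HOXA3 and HOXA4 above 10 TPM, and THP-1 and Kasumi-1 had little of either.

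HOXA5 (ENSG00000106004, chr7:27141052-27143668), which is needed for lung and trunk development, was with HOXA10 one of the genes that Kasumi-1 expressed most. Kasumi-1 gave 24.2, 8.24, 18.0 and 1.25 TPM, NOMO-1 13.6, 10.0, 2.93 and 1.15 TPM and THP-1 1.10, 1.21, 1.87 and 0.954 TPM. iHUVEC gave 34.7, 33.1, 21.5 and 20.1 TPM and TIME 7.07 to 13.1 TPM. Both KMT2A-rearranged lines were below the untreated Kasumi-1 level as deposited, THP-1 at 0.0454 times and NOMO-1 at 0.562 times. With mitochondrial genes removed, THP-1 stayed below it, at 0.0511 times, and NOMO-1 stood above it, at 1.95 times. NOMO-1 levels on that scale were 57.0, 37.8, 15.0 and 6.46 TPM against 23.6 to 42.2 TPM in iHUVEC. HOXA6 (ENSG00000106006, chr7:27145396-27150603) and HOXA7 (ENSG00000122592, chr7:27153716-27157936) were highest in iHUVEC, by median, on both scales. HOXA6 lay at 14.5, 11.9, 6.85 and 4.30 TPM in iHUVEC and at most 1.21 TPM in any other line. HOXA7 lay at 32.4, 22.4, 17.0 and 9.25 TPM in iHUVEC, at 9.19, 6.43, 6.72 and 1.72 TPM in TIME, at 1.44 to 5.03 TPM in NOMO-1 and at most 0.649 TPM in any THP-1 or Kasumi-1 library. With mitochondrial genes removed NOMO-1 reached 5.08 TPM of HOXA6, against 5.06 to 17.7 TPM in iHUVEC, and 8.08 to 18.9 TPM of HOXA7, against 10.9 to 39.4 TPM in iHUVEC and 2.14 to 11.5 TPM in TIME.

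MEIS1 (ENSG00000143995, chr2:66433452-66573869, plus strand), the cofactor usually named together with HOXA9 in leukemia, was nearly absent from THP-1. It was listed at 0 in 3 THP-1 libraries and at 0.0106 TPM in the one with IFNg. NOMO-1 gave 3.64, 3.80, 1.75 and 1.03 TPM, or 15.2, 14.3, 8.97 and 5.77 TPM with mitochondrial genes removed, and Kasumi-1 gave 1.10, 0.425, 0.513 and 0.304 TPM. The endothelial lines had 4.61, 3.57, 5.54 and 2.58 TPM in iHUVEC and 5.11, 5.09, 3.11 and 4.49 TPM in TIME. The order by median TPM as deposited was TIME, iHUVEC, NOMO-1, Kasumi-1 and THP-1, and each neighbouring pair overlapped except Kasumi-1 and THP-1. With mitochondrial genes removed NOMO-1 came first, with a median of 11.6 TPM against 5.96 in TIME, and its range of 5.77 to 15.2 TPM overlapped that of TIME but not the 0.368 to 1.33 TPM of Kasumi-1. THP-1 therefore had high HOXA9 with MEIS1 at or near 0, and NOMO-1 had both.

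PBX3 (ENSG00000167081, chr9:125747345-125967377, plus strand), the PBX cofactor of HOXA9 in leukemia, was highest in THP-1, where MEIS1 was lowest. THP-1 gave 36.3, 37.9, 47.8 and 34.8 TPM, NOMO-1 3.43, 5.02, 1.83 and 1.94 TPM, or 14.4, 18.9, 9.37 and 10.9 TPM with mitochondrial genes removed, and Kasumi-1 0.435, 1.40, 0.317 and 7.42 TPM. TIME lay at 19.5, 19.0, 17.1 and 30.7 TPM and iHUVEC at 12.6, 14.6, 12.6 and 7.41 TPM. The ranges of neighbouring lines in the order THP-1, TIME, iHUVEC, NOMO-1 and Kasumi-1 overlapped only between NOMO-1 and Kasumi-1. The order was the same with mitochondrial genes removed, and the NOMO-1 range of 9.37 to 18.9 TPM overlapped the iHUVEC range of 8.72 to 18.1 TPM and not that of Kasumi-1.

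**Figure D1:**
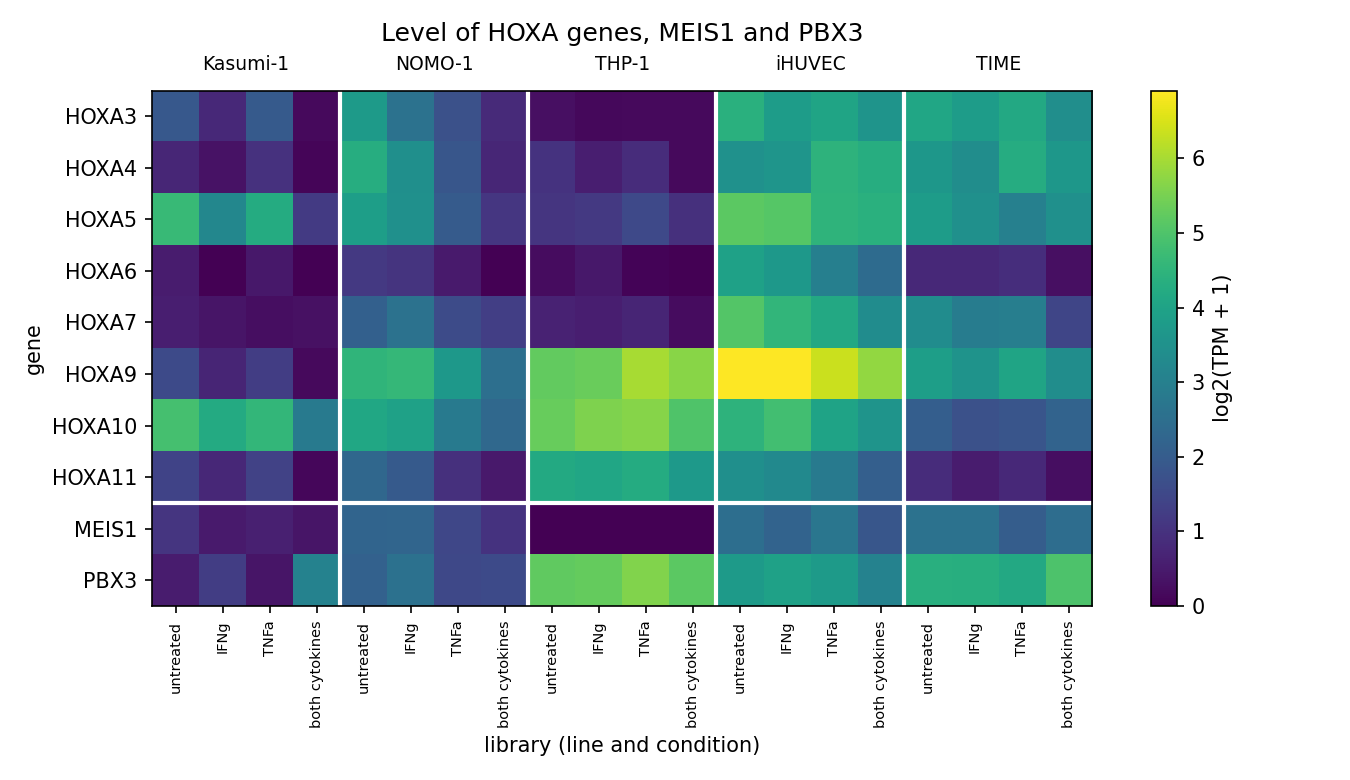
Level of each member (rows) in each of the 20 libraries (columns, by line and condition) as log2(TPM + 1), yellow meaning high and dark blue low. HOXA9 is bright in THP-1 and iHUVEC and dark in Kasumi-1; MEIS1 and HOXA3 to HOXA7 are dark in the 4 THP-1 libraries.

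Summed over the 8 HOXA members, untreated iHUVEC had 262 TPM, THP-1 95.9, NOMO-1 91.8, TIME 68.1 and Kasumi-1 60.3 TPM. The order turned with mitochondrial genes removed: NOMO-1 had 384 TPM, iHUVEC 318, THP-1 130, TIME 84.9 and Kasumi-1 72.9 TPM. The lines differed in which of these genes held that RNA. HOXA9, HOXA10 and HOXA11 together made up 96.8 to 98.5% of the sum in the THP-1 libraries, 46.1 to 69.4% in NOMO-1, 52.7 to 79.2% in Kasumi-1, 51.9 to 62.8% in iHUVEC and 25.3 to 28.3% in TIME. These shares are within a library and do not depend on the mitochondrial share. The THP-1 range lay above every other line and the TIME range below. Of the 8 genes, iHUVEC had 8 at 1 TPM or more in every library and TIME 6, whereas NOMO-1 had 8 untreated and with IFNg, 6 with TNFa and 4 with both. With mitochondrial genes removed NOMO-1 had 8, 8, 8 and 7 of them at 1 TPM or more.

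**Figure D2:**
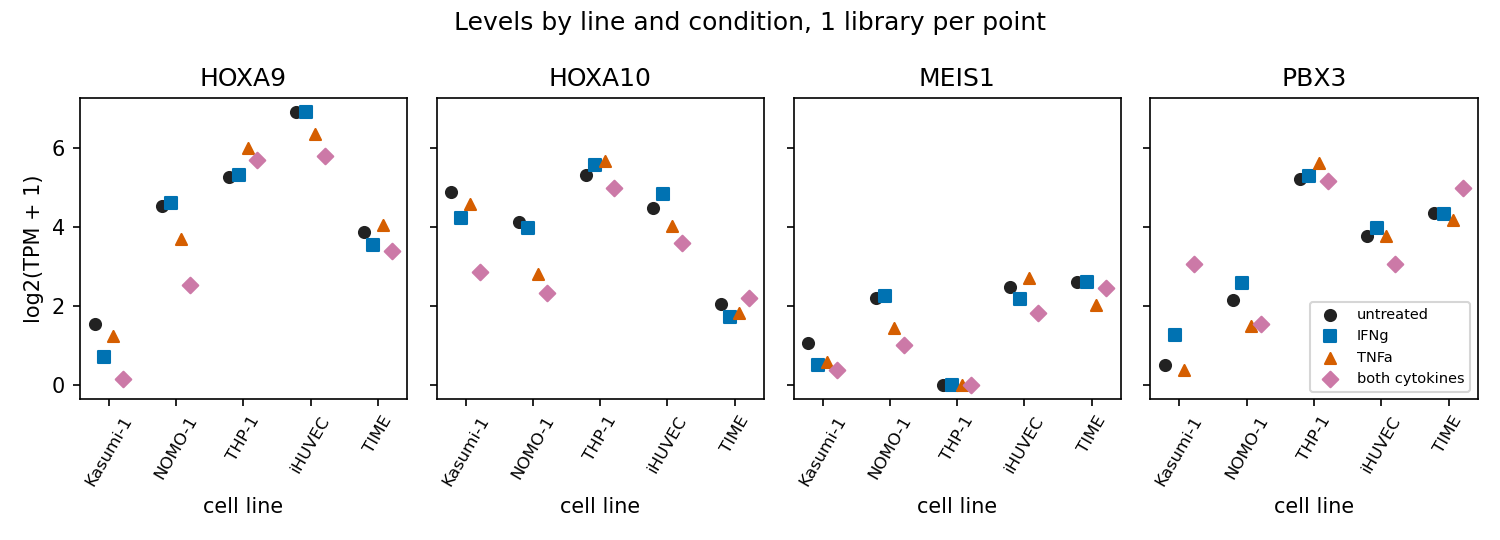
Level as log2(TPM + 1) of HOXA9, HOXA10, MEIS1 and PBX3 (panels) by line, with 1 point per library whose shape and colour give the condition. The 4 THP-1 points are at or near 0 for MEIS1 and between 34.8 and 47.8 TPM for PBX3, and the 4 Kasumi-1 points for HOXA9 lie below those of all other lines.

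The untreated KMT2A-rearranged lines can be set against the endothelial lines and against Kasumi-1. In limma fits of log2(TPM + 1) over the 5 untreated libraries, with p-values adjusted over 12948 genes by the Benjamini-Hochberg method, no member was called at an adjusted p under 0.05 in either comparison. Against the endothelial lines 12.5% of all genes were called (2.07% higher and 10.4% lower in the KMT2A-rearranged lines), and 1 member, HOXA7, passed an unadjusted p of 0.05. HOXA7 was lower by a log2 difference of -2.81 ± 0.876 (SE), adjusted p = 0.0797. The all-gene median was -1.22, against -1.18 for the 10 members, so the differences are also given from that median. HOXA10 lay 2.67 and HOXA11 2.31 above it (log2 differences of 1.45 ± 1.04 and 1.09 ± 1.07, limma adjusted p = 0.352 and 0.482), and HOXA9 lay 0.72 above it (-0.50 ± 1.13, adjusted p = 0.762). The sign of the HOXA9 difference changed with the scaling, to 0.85 with median-of-ratios scaling and 0.43 with mitochondrial genes removed, and to 1.02 without iHUVEC. MEIS1 differed by -1.44 ± 0.81 (adjusted p = 0.254) and PBX3 by -0.38. Without NOMO-1, HOXA3 was called lower, in a fit that called 8.80% of all genes, and without THP-1, PBX3 was called lower, in a fit that called 66.7% of all genes.

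Against Kasumi-1, limma called 0% of all genes, and 1221 genes (9.43%) passed an unadjusted p of 0.05. Here 8 of the 10 members were higher and 2 lower in the KMT2A-rearranged lines, with a median of 0.50 against -0.85 for all genes. HOXA9 had the largest difference, 3.33 ± 1.38 on the log2 scale, with unadjusted p = 0.0470 and limma adjusted p = 0.519, and it was the 1 member under 0.05 before adjustment. PBX3 followed at 3.16 ± 1.35 (adjusted p = 0.530), then HOXA4 at 1.93 and HOXA11 at 1.85. HOXA5 was lower, at -2.19, and HOXA10 was at -0.16. The MEIS1 difference of 0.03 averaged lines on either side of Kasumi-1, with 3.64 TPM in NOMO-1 and 0 in THP-1 against 1.10 TPM. Without THP-1, which leaves NOMO-1 against 1 Kasumi-1 library, HOXA3 and HOXA4 were called higher, in a fit that called 45.8% of all genes. Kasumi-1 was a single library, so its own spread was taken from the other lines.

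The cytokine comparisons ask whether 24 h of IFNg, TNFa or both altered these genes. They were made in 1 limma fit of all 20 libraries with the line as a block and p-values adjusted over 15043 genes. With both cytokines, HOXA4 fell in the KMT2A-rearranged lines, by a log2 change of -2.20 ± 0.58 (SE, adjusted p = 0.0336), and HOXA7 and HOXA6 fell in the endothelial lines, by -1.81 ± 0.28 (adjusted p = 0.00394) and -1.04 ± 0.30 (adjusted p = 0.0435). The other members were not called. In bulk RNA, fewer expressing cells and less RNA per cell cannot be told apart.

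In the KMT2A-rearranged lines 17.2% of all genes were called with both cytokines and 13.5% were called lower, so 1 of 10 members lies close to that share. All 10 members had negative estimates, with a median of -0.92 against -0.27 for all genes, of which 70.2% were negative. HOXA11 (-1.16 ± 0.37, adjusted p = 0.0615), HOXA3 (-1.52 ± 0.52, adjusted p = 0.0714), HOXA5 (-1.43, adjusted p = 0.110) and HOXA10 (-1.05, adjusted p = 0.139) missed the threshold, as did HOXA9 (-0.78 ± 0.55, adjusted p = 0.347) and MEIS1 (-0.60, adjusted p = 0.273). HOXA13 fell, by -1.05 ± 0.22 (adjusted p = 0.0167). The HOXA4 call rested on NOMO-1, where the change was -3.55 against -0.84 in THP-1, and it was lost without NOMO-1. The call was also lost without iHUVEC or without TIME, which serve only to estimate the spread. Those fits called no gene at all, so that loss says nothing about HOXA4 in particular. Without THP-1, 5 members were called, in a fit that called 31.2% of all genes.

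The 2 KMT2A-rearranged lines differed in these changes, which as single-library differences have no replicate check. With both cytokines the median change of the 10 members was -1.81 in NOMO-1, where all 10 were lower, and -0.17 in THP-1, against all-gene medians of -0.36 and -0.09. The NOMO-1 library also changed as a whole, from 76.0 to 82.1% mitochondrial TPM and from 9416 to 7510 genes at 1 TPM or more. The part of this in the member changes was not tested. With mitochondrial genes removed, the NOMO-1 changes ran from -4.05 for HOXA4 to -0.37 for PBX3, against an all-gene median of -0.29. HOXA9 went from 21.9 to 4.74 TPM in NOMO-1, a log2 change of -2.00, and from 37.1 to 50.4 TPM in THP-1, a log2 change of 0.43. With TNFa alone the members' median was -1.07 in NOMO-1, again with all 10 lower, and 0.06 in THP-1. The all-gene medians with TNFa were -0.21 in NOMO-1 and 0.11 in THP-1. In NOMO-1, 63.4% of all tested genes were lower with TNFa and 68.2% with both cytokines. HOXA4 lost most in NOMO-1 with TNFa, at -2.46, beside HOXA9 at -0.83. In a limma fit without THP-1, HOXA3, HOXA4 and HOXA5 were called lower with TNFa in NOMO-1, whose spread was then taken from the endothelial lines, and 12.9% of all genes were called.

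Kasumi-1, as 1 line, gives values only. With both cytokines 9 of its 10 members were lower, with a median change of -0.98 against 0.00 for all genes, and HOXA5 moved most, from 24.2 to 1.25 TPM (-3.49), followed by HOXA10 at -2.01. PBX3 was the exception, going from 0.435 to 7.42 TPM (2.55). IFNg alone gave a median of -0.60 in this line and TNFa alone -0.21.

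In the endothelial lines 18% of all genes were called with both cytokines and 12.5% were called lower. HOXA7 fell in both lines, from 32.4 to 9.25 TPM in iHUVEC and from 9.19 to 1.72 TPM in TIME, and HOXA6 was lower in both, from 14.5 to 4.30 TPM and from 0.746 to 0.209 TPM. There were 9 members with negative estimates, with a median of -0.64 against -0.22 for all genes, and 66.1% of all genes were negative. The exception was HOXA4 (0.42 ± 0.58, adjusted p = 0.671), which was 0.81 higher in iHUVEC and 0.02 higher in TIME. HOXA7 lost its call without iHUVEC (adjusted p = 0.0888) or without TIME (0.157), where 1 line remains, and HOXA6 lost it under most alternatives, among them median-of-ratios scaling (adjusted p = 0.293). Of the 12 endothelial markers 8 fell in the same libraries, or 4 with median-of-ratios scaling. Among the fibroblast and mural markers, PDGFRA (2.65) and ACTA2 (1.96) were called higher and RGS5 (-1.64) lower. The part of either list in the result was not tested.

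**Figure D3:**
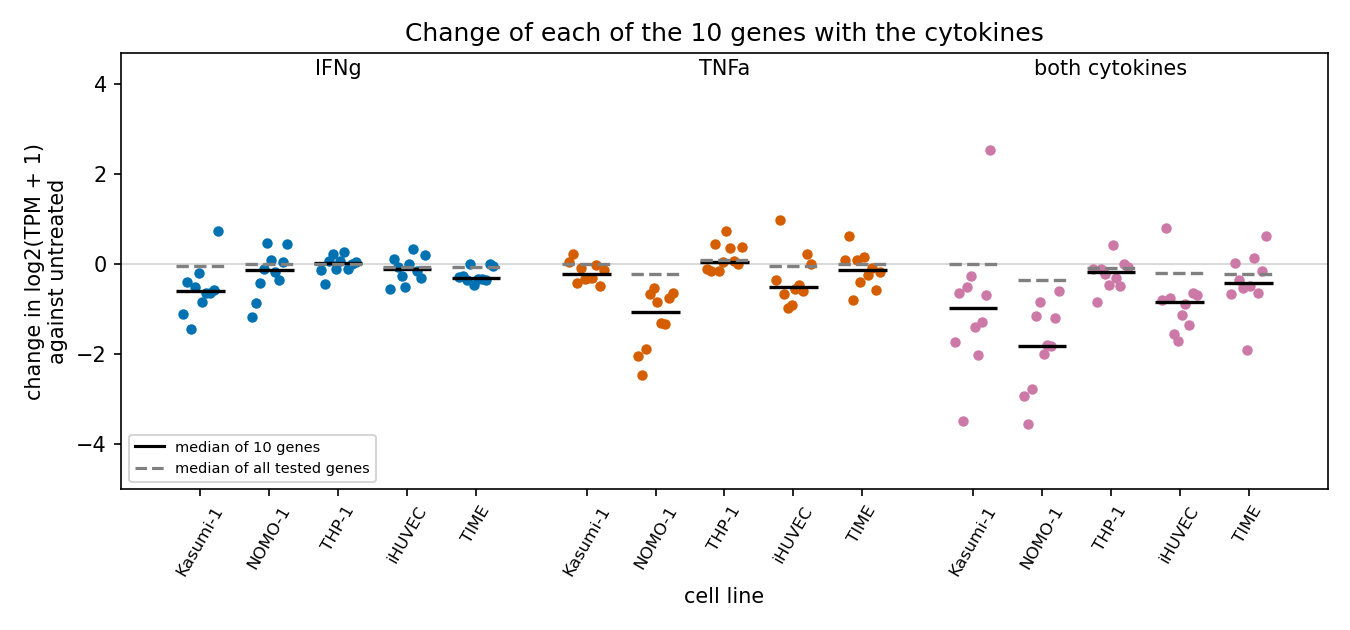
Change in log2(TPM + 1) from the untreated library of the same line (vertical axis), with 1 point per member, by line within IFNg, TNFa and both cytokines; black bars are the median of the 10 members and dashed grey bars that of all tested genes. With both cytokines the NOMO-1 points lie below 0 for all 10 members, down to -3.55 for HOXA4, and the THP-1 points lie between -0.84 and 0.43.

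The single cytokines gave no member call. With IFNg limma called 0.246% of all genes in the KMT2A-rearranged lines and 0.399% in the endothelial lines, no member passed an unadjusted p of 0.05 in either, and the members' medians were 0.04 and -0.16. With TNFa it called 0.0864% and 1.26% of all genes. All 10 members had negative TNFa estimates in the KMT2A-rearranged lines, with a median of -0.44 against -0.05 for all genes, none with an unadjusted p under 0.05 and the smallest adjusted p at 0.522. In the endothelial lines 9 of 10 had negative TNFa estimates, and HOXA7 alone was under 0.05 before adjustment (-0.65 ± 0.28, adjusted p = 0.563).

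Whether the response differed between the KMT2A-rearranged and endothelial lines was tested directly, and no member was called. The test of the difference called 0% of all genes for IFNg, 0.0731% for TNFa and 3.51% for both cytokines, and 0, 1 and 2 members passed an unadjusted p of 0.05. HOXA4 had the largest difference in both TNFa settings, -2.11 ± 0.82 with TNFa (limma adjusted p = 0.598) and -2.61 ± 0.82 with both (adjusted p = 0.118). HOXA7 differed the other way with both cytokines (1.16 ± 0.40, adjusted p = 0.141). Both differences share the untreated libraries of their lines. Without THP-1, 3 members were called for the combination, where 16.2% of all genes were called, and 2 for TNFa, where 4.86% were.

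The genes whose levels tracked HOXA9 and MEIS1 over the 20 libraries were described by Pearson's r of log2(TPM + 1) among 15043 genes. These libraries are 5 lines in 4 conditions, so r mostly reflects the order of 5 lines. Closest to HOXA9 were PRDX2 (0.92), a peroxidase, TPM2 (0.91), a tropomyosin, SNRPN (0.90), EIF3C (0.90) and NEFH (0.89). Among the other members HOXA11 came nearest, at 0.76, while HOXA10 reached 0.35 and MEIS1 0.27. Closest to MEIS1 were NLRP1 (0.95), an inflammasome sensor, DYSF (0.95), a membrane repair protein, HOXA3 (0.95), GNGT2 (0.94) and AASS (0.93), and HOXA4 stood eighth at 0.91. MEIS1 thus ranked with the anterior genes, its r being -0.56 with HOXA10, -0.32 with HOXA11 and -0.02 with PBX3.

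The transcript table shows that the same gene level was made of different HOXA9 transcripts. HOXA9-201, a coding transcript of 2060 nt, held 79.0 to 92.9% of HOXA9 TPM in NOMO-1, 33.7 to 48.6% in THP-1, 21.6 to 25.8% in iHUVEC and 26.1 to 41.0% in TIME. HOXA9-202, a coding transcript of 797 nt, held 4.76 to 11.7% in NOMO-1, 13.0 to 31.0% in THP-1 and 36.1 to 47.6% in iHUVEC. HOXA9-206, a processed transcript of 1393 nt with no coding sequence, held 26.0 to 30.0% in THP-1, 25.1 to 33.4% in iHUVEC and 0 to 5.42% in NOMO-1. The untreated level of HOXA9-201 was 20.3 TPM in NOMO-1, 18.1 in THP-1, 30.7 in iHUVEC and 3.88 in TIME, or 85.2, 24.5, 37.3 and 4.83 TPM with mitochondrial genes removed. Shares in Kasumi-1 rest on at most 1.95 TPM of HOXA9 and ranged from 30.5 to 100% for HOXA9-201.

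**Figure D4:**
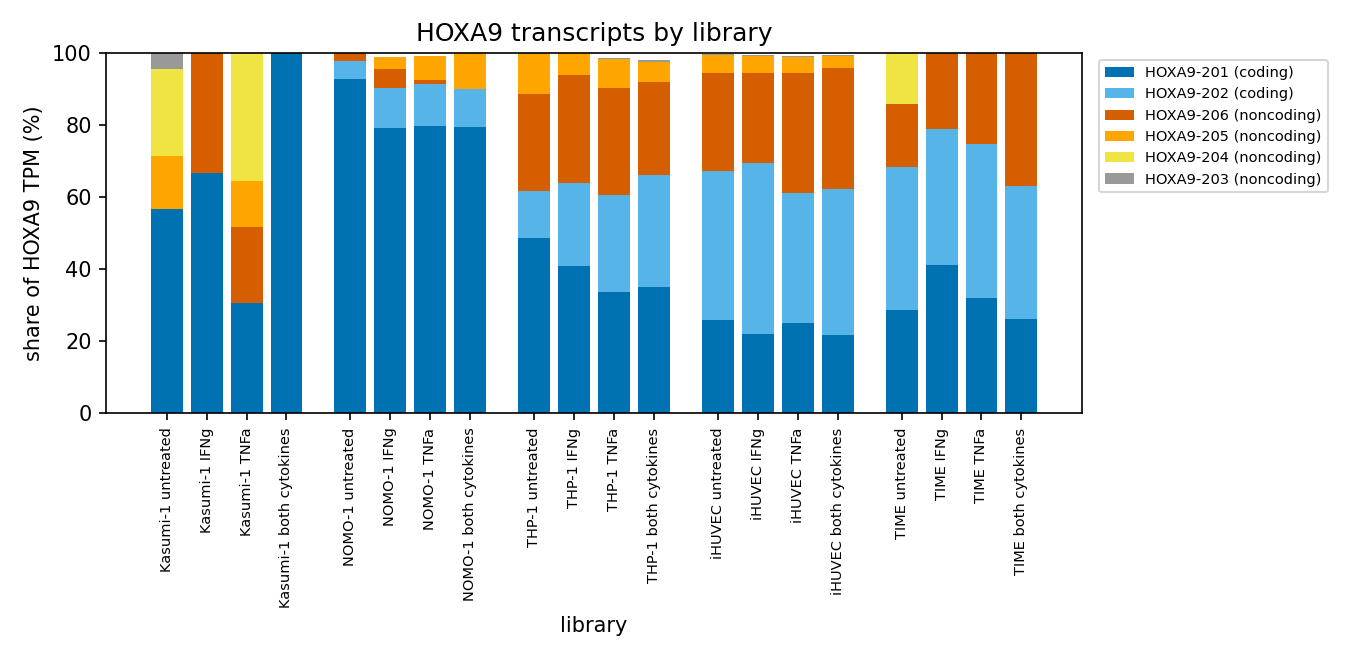
Share of HOXA9 TPM (percent, vertical axis) held by each HOXA9 transcript in each library (bars, by line and condition). HOXA9-201 takes 79.0 to 92.9% in NOMO-1 and 48.6% or less in THP-1, iHUVEC and TIME; bars that stop short of 100 leave out transcripts that the annotation used here does not name.

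For HOXA10, noncoding transcripts weighed most in NOMO-1: coding transcripts held 27.2 to 47.5% of its TPM there against 54.5 to 100% in the other 4 lines, and HOXA10-205, a processed transcript of 942 nt, held 46.1 to 72.8%. In Kasumi-1 the coding HOXA10-206 held 52.9 to 82.0%. The Kasumi-1 HOXA5 level was likewise largely noncoding, HOXA5-202 of 329 nt holding 50.7 to 73.6%. This was not particular to Kasumi-1, as HOXA5-202 held 12.7 to 65.1% in TIME and 0 to 56.2% in THP-1. It held 0 to 12.1% in NOMO-1 and 7.55 to 16.1% in iHUVEC. Transcripts of neighbouring HOXA genes overlap and no source used here gives the strand setting of the counting, so reads in shared stretches and from antisense RNAs of the cluster could be assigned to either; those antisense genes were not analysed here. A readthrough gene across HOXA9 and HOXA10, AC004080.3, was listed at 0 in 19 libraries and at 0.103 TPM in the other.

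Many genes of the HOXB and HOXD clusters were present in the endothelial lines and low or absent in the AML lines. Most of them passed the filter on low values only through the endothelial libraries, so their untreated values are given with no test and no count. HOXB7 was listed at 0 in untreated NOMO-1 and Kasumi-1 and lay at 1.24 TPM in THP-1, against 50.8 TPM in iHUVEC and 56.8 TPM in TIME. HOXD8 was listed at 0 in untreated NOMO-1 and THP-1 and lay at 0.328 TPM in Kasumi-1, against 18.9 and 20.5 TPM in the endothelial lines. HOXB8, HOXD1, HOXD4 and HOXD9 were listed at 0 in all 3 untreated AML lines. HOXD13 went the other way, at 10.9 TPM in untreated Kasumi-1 and 0 in untreated iHUVEC and TIME. HOXB4 reached 3.69 TPM in THP-1, in the library with IFNg.

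Among genes linked to HOXA9 and MEIS1 in leukemia, 2 of 20 tested were higher and 4 lower in the untreated KMT2A-rearranged lines than in the endothelial lines. Of all genes, 2.07% were called higher and 10.4% lower in that comparison. MYB, a transcription factor of blood progenitors, was higher (5.25 ± 1.10, limma adjusted p = 0.0261), as was FLT3, a receptor kinase of progenitors (2.01 ± 0.493, adjusted p = 0.0412). HMGA2 (-5.95) and SOX4 (-3.83) were lower. MYB and FLT3 passed the filter only through AML libraries, MYB being at most 0.275 TPM in the endothelial lines, so the direction of their calls was fixed by the filter. With either other scaling the counts were 3 higher and 1 lower. The 14 blood markers summed to 902 to 6542 TPM in the AML libraries and 3.97 to 15.2 TPM in the endothelial ones; their part was not tested. With both cytokines MYB fell in the KMT2A-rearranged lines, from 132 to 23.3 TPM in THP-1 and from 15.0 to 0.310 TPM in NOMO-1 (-3.03 ± 0.573, adjusted p = 0.0111), and INSR, ZNF521 and FLT3 also fell while PIM1, a survival kinase, rose (3.14 ± 0.550, adjusted p = 0.00846). The list counts were 1 higher and 4 lower of 21 tested, beside 13.5% of all genes called lower. They were 2 and 5 with median-of-ratios scaling. None was called without iHUVEC or TIME, in fits that called no gene at all.

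Of the other TALE cofactors 0 of 7, of the KMT2A complex and its elongation partners 0 of 21 and of the Polycomb repressors, which silence HOX genes, 0 of 14 were called by limma in the untreated comparison with the endothelial lines. Of all genes, 12.5% were called there. The TALE gene MEIS3 came nearest (2.34 ± 0.67, limma adjusted p = 0.0634). It lay at 8.89 TPM in untreated NOMO-1 (37.2 TPM with mitochondrial genes removed) and 0 in Kasumi-1. KMT2A itself lay at 0.479 to 0.978 TPM in NOMO-1 and 3.20 to 6.76 in THP-1. In Kasumi-1 it lay at 16.7 to 32.7 TPM and in the endothelial lines at 12.3 to 18.3 TPM. These KMT2A values are as deposited, a scale on which the mitochondrial share lowers the NOMO-1 level. The log2 difference between untreated KMT2A-rearranged and endothelial lines was -2.10 (limma adjusted p = 0.135). With both cytokines 3 KMT2A complex genes (WDR5, MLLT1 and PSIP1) of 21 fell in the KMT2A-rearranged lines. So did 4 Polycomb genes (JARID2, CBX7, SUZ12 and EZH1) of 15. Of all genes, 13.5% were called lower, a share that the KMT2A complex list is close to. With median-of-ratios scaling the counts were 3 higher and 2 lower, and 2 higher and 3 lower, in the same order. Without iHUVEC or TIME none was called in either list, in fits that called no gene at all. In the endothelial lines with both cytokines, limma called HOXB8 (-1.82, adjusted p = 0.000264), HOXB5, HOXB7 and HOXD9 (-1.51, adjusted p = 0.0214) lower beside HOXA6 and HOXA7. HOXD3 was called higher (0.66, adjusted p = 0.0481). The share of all genes called lower there was 12.5%. HOXB8 and HOXB5 were at most 0.154 and 0.0168 TPM in any AML library, where no fall could be seen.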

How the data were processed

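RNA of 20 libraries from 5 established human lines was measured by sequencing; per the labels' protocols it was purified with a QIAGEN kit and sequenced on an Illumina NovaSeq. The authors deposited TPM values in a table of 35168 genes and one of 170068 transcripts. The submitters' processing notes name Salmon 1.2.0, DESeq2 1.28.1 and GRCh38 p13 without roles and without an annotation release. TPM keeps no depth, so no counting interval is given. Symbols came from a gene name table (35051 IDs) and GENCODE 29 (110 IDs), 7 IDs having none; coordinates and transcript types are from GENCODE 29 on GRCh38.

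Values were tested as log2(TPM + 1), which understates changes of low genes, with limma 3.58.1 (moderated, with a mean-variance trend) in R 4.3.3. Genes with at least 1 TPM in at least 2 libraries of the fit were tested, with Benjamini-Hochberg adjustment over all of them and a threshold of 0.05. Untreated lines were compared among 5 libraries in 3 classes, cytokines in 20 libraries with the line as a block. The same line under different conditions pairs the libraries (correlation of deviations 0.652 to 0.904 over 30 pairs). Python 3.11.15 with pandas 2.3.3 and matplotlib 3.10.9 made tables and figures. The members and gene lists were chosen with earlier results of these data known. Named genes were all members, the 5 closest in correlation to HOXA9 and MEIS1, and at most the 4 largest called genes of each list. HOXA13, HOXB4, HOXD13, MEIS3, KMT2A and the list genes named for the cytokine comparisons, which are genes called there, were chosen after their values were seen. Alternatives covered scaling, mitochondrial genes, pseudocount, filter, trend, line block, class definition and leaving out each line.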

Additional observations from a re-analysis of the deposited data

How the results depend on the processing

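With 1 library per line and condition, results rest on 2 lines a class, and depth could not be checked from TPM. The alternatives were compared for counts of members and for log2 differences of a few chosen genes. A count was kept when equal or close to its main value, including 0 staying 0, and a gene when it kept direction and call. By this rule 208 values were kept, 29 had a lower count or lost a call, 12 had a higher count or gained a call, and 2 counts moved. Direction was checked for the chosen genes only, and 3 values reversed, all for HOXA9 against the endothelial lines. They were 0.43 with mitochondrial genes removed, 0.85 with median-of-ratios scaling and 1.02 without iHUVEC. The range was -2.02 to 1.02 when 1 line was left out. The cause of these shifts was not tested. Members higher in untreated KMT2A-rearranged than endothelial lines numbered 2, but 4 with mitochondrial genes removed and 5 with median-of-ratios scaling; the all-gene median was then -0.47 and -0.08 in place of -1.22. Members called there numbered 0, but 3 in libraries with both cytokines (HOXA3, HOXA4 and HOXA5, lower). Of these, HOXA3 and HOXA4 passed the filter on low values only through the endothelial libraries. The direction of those calls was thus fixed by the filter. Genes called overall against the endothelial lines went from 1613 to 8300 without THP-1, to 48 or 78 without iHUVEC or TIME and to 0 without the filter on low values.

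With both cytokines in the KMT2A-rearranged lines 1 member was called, but 5 with all 3 AML lines as a class, 2 at a filter of 5 TPM, 2 with mitochondrial genes removed, 3 at a pseudocount of 0.1, 0 without the filter and 0 with no replicate block, and 0 to 5 when 1 line was left out. In the endothelial lines the count of 2 became 1 with mitochondrial genes removed, 1 with median-of-ratios scaling, 1 without the filter, 1 at a pseudocount of 0.1, 0 with no replicate block and 0 to 2 when 1 line was left out. Leaving out 1 line gave 0 to 3 members called for TNFa in the KMT2A-rearranged lines, 0 to 2 for the difference between classes with TNFa and 0 to 3 for that with both cytokines. With no replicate block the adjusted p was 0.851 for HOXA4 and 0.990 for HOXA7. HOXA4 ranged from -3.55 to -0.84, HOXA6 from -1.55 to -0.53 and HOXA7 from -1.90 to -1.71 when 1 line was left out. With both cytokines the main fit called 17.2% of all genes in the KMT2A-rearranged lines and 18% in the endothelial lines. That share changed when a line was left out, and shares for the other alternatives are not given here. The member counts above therefore do not describe the members alone.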
